A study of Caenorhabditis elegans with 4 samples.

Results

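The regions described here are the binding peaks of the worm forkhead protein FKH-2 on chromosome III of Caenorhabditis elegans. They are the 603 regions listed on III, of 3378 in all, in the peak list that the authors deposited for the series as a whole, called the combined list below. They were chosen by chromosome alone, so neither their height nor their width entered the choice. The peaks come from chromatin immunoprecipitation followed by sequencing (ChIP-seq), which recovers DNA crosslinked to a protein and counts where its reads pile up. Chromatin was studied in 4 samples, 2 of them ChIP replicates and 2 input, all from hermaphrodite larvae of the L3 stage grown at 20 °C and fixed with 2% formaldehyde. All animals were of strain OP185, with the genotype unc-119(ed3) and the transgene wgIs185, which adds fkh-2 tagged at its C-terminus with TY1, EGFP and FLAG together with an unc-119 marker, and the ChIP used antibodies to GFP. The transgene entered the strain by bombardment, so the tagged protein was made from added copies, and its binding stands for that of FKH-2 only so far as the tag and the added dose allow. One strain note in the labels calls the fusion FKH-1, whereas the genotype and the titles name fkh-2. The labels do not say whether the replicates were separate cultures, and the spread between replicates may thus be technical. The input samples enter no value given here.

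Forkhead proteins bind DNA through a winged-helix domain, and several of them act in worms as regulators of organ and neuron development. The 5 autosomes of this species have gene-dense centres, rich in conserved and highly expressed genes, between arms that recombine more often and hold more repeats. Its chromosomes are holocentric, so the middle of a chromosome is not a centromere. Per the annotation of assembly WBcel235, chromosome III carries the gene unc-119, which the strain bears both as a mutant allele and as a rescuing copy, while fkh-2 itself lies on X. Peaks are placed here on WormBase WS220, another build, so they were assigned to no gene and no DNA sequence is shown for them.

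Beside the combined list, each ChIP replicate has a list of its own. The replicate lists name spp via IDR as their source and the combined list names PeakSeq, so the lists compared below come from different peak callers. Replicate 1 had 4480 peaks on III, each 400 bp wide, of 30000 in its whole list. Replicate 2 had 2950 on III, each 260 bp wide, of 20799. The combined peaks on III had a median width of 140 bp, and spanned widths of 1 to 1848 bp with quartiles at 54 and 201 bp. Together they covered 95.5 kb or 0.693% of the chromosome. Peaks of the replicates are given by the rank number in their names, with 1 taken as the strongest. These numbers do not strictly follow the score. In replicate 2 on III, for example, the peak ranked 799 had a score of 2.73 and that ranked 1851 one of 3.09. In replicate 1, the peak ranked 615 had a score of 2.61 and that ranked 883 one of 2.77. The top score was 3.09 in replicate 1, reached by 611 peaks of which 100 lay on III. It was 3.198 in replicate 2, reached by 789 peaks of which 109 lay on III, and order among such ties rests on the names alone. Sequencing depth is unknown, and every interval below is a 95% interval that covers counting error only, since neighbouring peaks are not independent.

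The lowest q values on III, the authors' p-values corrected for the number of regions tested, marked a few sites that both replicates also ranked high. Positions are given below as the left arm, centre or right arm, which are 3 equal parts of the chromosome. The lowest q belonged to III:10224459-10225356 in the right arm, with q = 1.19e-30, a width of 898 bp and ranks of 64 in replicate 1 and 23 in replicate 2. The midpoints of its replicate peaks lay 5 bp apart, but 251 and 246 bp from the midpoint of the combined peak. Both replicates thus placed their peak at the same spot, well off the centre of the wide combined call. The lowest q of the centre was that of III:8417157-8417872, with q = 1.68e-21, a width of 716 bp and ranks of 26 and 31 in replicates 1 and 2. Here the best replicate 1 peak lay 7 bp from the combined midpoint and that of replicate 2 90 bp from it.

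A pair of strong sites stood close together in the centre. The peak III:8801608-8802511 had q = 1.70e-16, a width of 904 bp and ranks of 80 in replicate 1 and 653 in replicate 2. Its left neighbour III:8799838-8800350, 1257 bp away, had q = 8.36e-12, a width of 513 bp and ranks of 58 and 122. The gap between them is wider than the 1000 bp used below to define clusters, so both count there as single peaks.

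In the left arm, III:1925022-1925498 had q = 6.47e-15 with ranks of 86 and 58 in replicates 1 and 2, and III:3801260-3801878 had q = 3.58e-12 with ranks of 37 and 456. Among the 10 peaks with the lowest q, the ranks of the replicates differed most at 2 other left-arm sites. At III:4281894-4282568 (q = 8.65e-13) the best rank was 131 in replicate 1, with the highest score, and 6269 in replicate 2, with a score of 2.78. At III:312884-313262 (q = 5.45e-11) it was 18086 in replicate 1, with a score of 0.289, and 226 in replicate 2, with the highest score. By rank number, these sites were therefore among the leading peaks of one replicate and much lower in the list of the other. The first, at rank 6269 of 20799, was still in the upper part of the replicate 2 list. Its score of 2.78 likewise lay above the replicate 2 median on III of 2.02. At the second, 0.289 lay below the replicate 1 median on III of 0.384.

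The remaining 2 of the 10 lowest q values on III had no peak in either replicate list. The first, III:931226-931826, was the lowest-q peak of the left arm, with q = 3.02e-16 and a width of 601 bp. The nearest replicate 1 peak began 750 bp to its right and the nearest replicate 2 peak ended 1018 bp to its left. The other, III:1299609-1300481, had q = 3.35e-12 and a width of 873 bp, and its nearest replicate peaks lay 2585 bp away in replicate 1 and 10550 bp away in replicate 2. A low q in the combined list and a replicate call were thus not tied to each other at these sites. Whether the different peak callers account for this was not tested.

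Over the whole chromosome, 30 combined peaks on III had a q of at most 1e-06, or 4.98% (3.38 to 7.03%), beside 3.88% of all combined peaks. They were 293 to 1848 bp wide, with a median of 486 bp, and 10 lay in the left arm, 8 in the centre and 12 in the right arm. Both replicates overlapped 26 of the 30 (86.7%, 69.3 to 96.2%), against 93 of 101 such peaks on the other chromosomes (92.1%, 84.99 to 96.5%). Neither replicate overlapped 3 of the 30 on III and 3 of the 101 elsewhere. The share of peaks with so low a q was 1.34 points higher on III than on all other chromosomes, with an interval of the difference from -0.319 to 3.47 points. Against the other autosomes it was 1.84 points higher (0.158 to 3.98 points), and against all others without I 1.42 points higher (-0.242 to 3.56 points). By single chromosome the share was 5.30% on I and 5.45% on X, both above III, and 2.76 to 3.26% on II, IV and V. With the limit at a q of 0.001 instead, the share on III was 20.6%. That was 0.384 points above all other chromosomes (-3.02 to 4.09 points) and 0.877 points above the other autosomes (-2.61 to 4.65 points). Both of the latter intervals include 0, so the difference from the other autosomes depends on the limit.

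**Figure D1:**
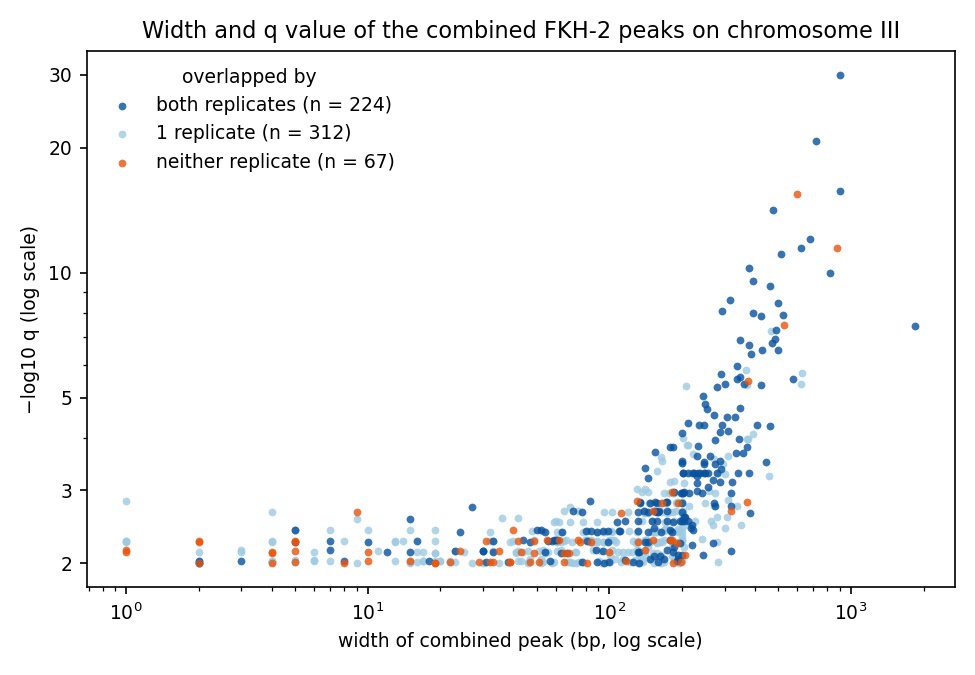
Width in bp (x axis, log scale) against −log10 of the authors' q value (y axis, log scale) for the 603 combined peaks on III, 1 point per peak, coloured by whether both replicates (224 peaks), 1 replicate or neither (67 peaks) overlapped it. Peaks with a low q were wide, and 2 peaks without a replicate peak stand among the 10 lowest q values.

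Replicate support of the combined peaks was the next question. Overlap by 1 bp or more was counted. The widths of the replicate peaks on III add up to 1.79 Mb in replicate 1 and 0.767 Mb in replicate 2, of 13.8 Mb. Some overlap would thus also arise with randomly placed peaks. Its share was not computed, so the shares below are counts of overlap and not of proven support. Both replicates overlapped 224 of the 603 combined peaks on III (37.1%, 33.3 to 41.1%), beside 39.1% of all combined peaks. Replicate 1 overlapped 438 of them (72.6%, beside 72.2% of all combined peaks) and replicate 2 overlapped 322 (53.4%, beside 55.5%). Replicate 1 alone overlapped 214 (35.5%, beside 33.1% of all), replicate 2 alone 98 (16.3%, beside 16.5%), and neither replicate 67 (11.1%, 8.72 to 13.9%, beside 11.4%). III was thus close to the whole list in each class. Replicate 1, whose list on III has more and wider peaks, overlapped more of the combined peaks than replicate 2.

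Set against all other combined peaks, the share covered by both replicates differed on III by -2.35 points, with an interval from -6.53 to 1.97 points. Leaving out chromosome I, which has few combined peaks and a high coverage of 68.9%, the difference was -0.877 points (-5.08 to 3.46 points). For peaks with no replicate overlap the difference was -0.312 points (-2.89 to 2.67 points). Each of these intervals includes 0, so a difference of III from the rest was not detected, and the intervals leave room for differences of several points in either direction. Among single chromosomes, III (37.1%) lay between V (35.7%, 32.3 to 39.3%) and X (50.0%, 45.9 to 54.1%), and its interval overlapped those of II, IV and V but not that of X.

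**Figure D2:**
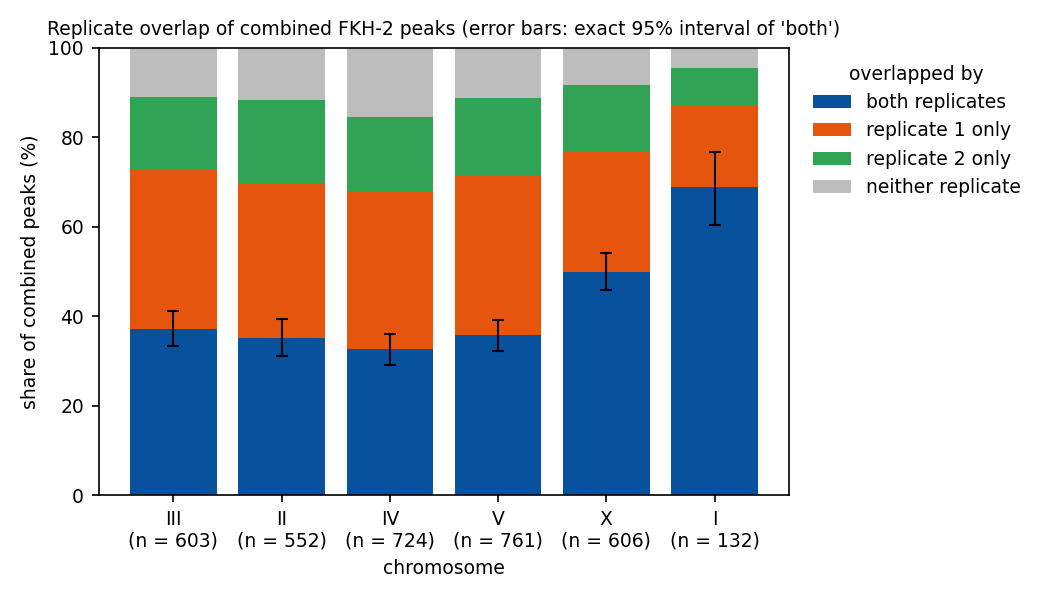
Share of combined peaks (y axis, percent) on each chromosome (x axis, III first) that were overlapped by both replicates, by replicate 1 only, by replicate 2 only or by neither, with exact 95% intervals of the share covered by both. III, at 37.1%, lies beside II, IV and V, while X and I have larger shares covered by both.

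Coverage on III followed both q and width, which were themselves tied, with a Spearman correlation of -0.70 over the 603 peaks (between -0.58 and -0.72 on the other chromosomes). Both values come from the same call, and the correlation is across peaks of 1 list. With III peaks sorted by q into 4 classes of about equal size, both replicates overlapped 103 of the 151 peaks of lowest q (68.2%, 60.1 to 75.5%), with a median width of 275 bp. They overlapped 30 of the 151 peaks of highest q (19.9%, 13.8 to 27.1%), with a median width of 54 bp. The share with no replicate peak was 4.64% in the class of lowest q and 18.5% in that of highest q. On the other chromosomes, by the same bounds of q, both replicates overlapped 459 of 662 (69.3%) and 155 of 755 (20.5%). There, 4.23% and 20.0% had no replicate peak, so the trend was not particular to III. Since q and width were tied, they were also crossed with each other on III. Among III peaks with q at or below the median, both replicates overlapped 134 of the 235 wider than 140 bp (57.02%) and 25 of the 67 that were not (37.3%). Among those with q above the median, they overlapped 20 of the 63 wider peaks (31.7%) and 45 of the 238 narrower ones (18.9%). Within each class of width the peaks of lower q were covered more often, and within each class of q so were the wider ones. A wider peak meets a replicate peak more readily when any overlap counts, so part of its higher coverage may be set by width itself. The classes were split only at the medians, so q and width could still vary together within each class. Their separate contributions were not tested.

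The narrowest calls made up a sizeable part of the list on III. Peaks of at most 20 bp numbered 86 (14.3%, 11.6 to 17.3%), beside 11.8% of all combined peaks, and 6 of them were 1 bp wide (0.681% of all combined peaks were). Their q values were high, with a median of 0.00752 and none below 0.00148. Both replicates overlapped 14 of the 86 and neither overlapped 19. The share of such narrow peaks was 3.02 points higher on III than on the other chromosomes (0.174 to 6.24 points). Without chromosome I, where narrow peaks were rare (3.79%), the difference was 2.65 points (-0.219 to 5.88 points), and against the other autosomes it was 2.51 points (-0.428 to 5.79 points). Both of these intervals include 0. By single chromosome the share of narrow peaks was 13.4% on IV (11.0 to 16.1%), 12.1% on II, 11.3% on V and 9.41% on X. In all, 12 properties of the peaks were compared by such differences. Each was set against all other peaks, against those without I and against those of the other autosomes. The intervals carry no correction for the number of comparisons.

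Where both replicates overlapped a combined peak on III, the distances of their best-ranked peaks from it were measured. Overlap itself limits these distances, given the widths of the peaks, so closeness is in part set by the choice of peaks. The midpoint of the replicate 1 peak was a median of 47.8 bp from that of the combined peak, and that of replicate 2 was 42.8 bp away, over 224 peaks. The replicate midpoints were a median of 72.5 bp from each other (quartiles 30.8 and 134 bp), against 81 bp (38 and 146 bp) at 1096 such peaks elsewhere. The ranks of the replicates at these III peaks had a Spearman correlation of 0.26, while q had one of 0.67 with the rank in replicate 1 and 0.48 with the rank in replicate 2. These correlations describe 224 peaks of the same pair of samples, and how far the lists rest on the same reads is not given.

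Seen from the replicate lists, most of the best-ranked peaks on III were in the combined list. All 53 replicate 1 peaks on III with a rank up to 300 overlapped a combined peak (100%, 93.3 to 100%), against 180 of 188 on II, IV, V and X (95.7%, 91.8 to 98.1%). Of the 46 replicate 2 peaks on III up to that rank, 39 did (84.8%, 71.1 to 93.7%), against 152 of 184 (82.6%, 76.3 to 87.8%). The other 7 replicate 2 peaks had no replicate 1 peak either, 4 of them lay in the centre, and their distance to the nearest combined peak ran from 1773 to 25084 bp. All 7 had the highest score of their list, and they were found after the values were seen. The strongest of them by name was III:13409462-13409721, with rank 185.

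The share in the combined list fell steeply with rank. For ranks above 300 and up to 1000, 62.9% of replicate 1 peaks on III and 39.1% of replicate 2 peaks overlapped a combined peak. For ranks above 3000 the shares were 6.88% and 7.57%. The corresponding shares on II, IV, V and X were 62.2% and 39.2% at the middle ranks and 6.67% and 6.80% above 3000, and their intervals overlapped those of III in every class. Between the replicates themselves, 846 replicate 1 peaks on III overlapped a replicate 2 peak (18.9%, 17.7 to 20.1%) and 802 replicate 2 peaks overlapped a replicate 1 peak (27.2%, 25.6 to 28.8%). On II, IV, V and X together these shares were 19.1% (18.6 to 19.7%) and 25.5% (24.8 to 26.2%). Randomly placed peaks of such number and width would overlap in part too, and how far these shares exceed that was not computed.

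**Figure D3:**
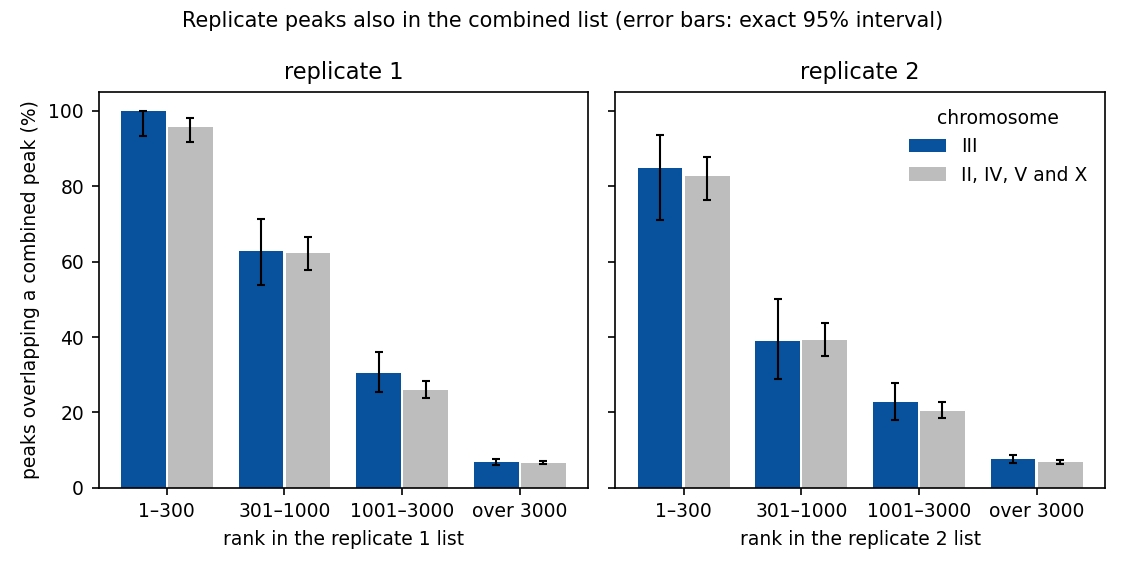
Share of replicate peaks that overlapped a combined peak (y axis, percent) by rank class in the replicate's own list (x axis), for III beside II, IV, V and X pooled, with exact 95% intervals and replicate 1 and 2 in separate panels. The share falls with rank in both replicates, from 100% and 84.8% on III at ranks up to 300 to under 10% above 3000. The intervals of III and of II, IV, V and X overlap in each class, and I is not shown.

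Along the chromosome, the combined peaks were denser in the centre than in either arm. With III cut into 3 equal parts of 4.59 Mb, called left arm, centre and right arm, the centre held 237 peaks (39.3%, 35.4 to 43.3%), the left arm 176 (29.2%, 25.6 to 33.0%) and the right arm 190 (31.5%, 27.8 to 35.4%). Over all autosomes, 37.7% of combined peaks lay in the centre. The density was 51.6 peaks per Mb in the centre of III (45.2 to 58.6), 38.3 in the left arm (32.9 to 44.4) and 41.4 in the right arm (35.7 to 47.7). The centre was 1.35 times as dense as the left arm (1.10 to 1.65) and 1.25 times as dense as the right arm (1.03 to 1.52). The right arm was 1.08 times as dense as the left (0.875 to 1.33), a ratio whose interval includes 1. The central share of III was 2.01 points above that of the other autosomes together (-2.33 to 6.44 points), so a stronger central excess on III than on them was not detected.

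Both replicate lists also had their highest count in the centre of III, though for replicate 1 the interval of its share includes an even 33.3%. The centre held 34.4% of replicate 1 peaks on III (33.05 to 35.9%) and 36.9% of replicate 2 peaks (35.1 to 38.7%). Among combined peaks on III covered by both replicates, 91 of 224 were central (40.6%, 34.1 to 47.4%), and among those covered by neither, 21 of 67 (31.3%, 20.6 to 43.8%).

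Differences between the centre and the arms in the kind of peak they held were not detected. Peaks in the centre had a median width of 145 bp, against 139.5 bp in the left arm and 136 bp in the right arm, and the median q was 0.00419, 0.00415 and 0.00479. Both replicates overlapped 38.4% of central peaks and 36.3% of the peaks of both arms, a difference of 2.06 points (-5.75 to 9.98 points). Replicate 1 overlapped 76.4% and 70.2% (difference 6.15 points, -1.16 to 13.1 points) and replicate 2 overlapped 53.2% and 53.6% (-0.387 points, -8.50 to 7.69 points). A q of at most 0.001 was found at 124 III peaks, beside 20.2% of all combined peaks, and these were spread nearly evenly, with 41 in the left arm, 43 in the centre (34.7%, 26.4 to 43.7%) and 40 in the right arm. Among the 479 peaks with a higher q, 194 were central (40.5%, 36.1 to 45.05%). The central share of the peaks with a q of at most 0.001 minus that of the others was -5.82 points, with an interval from -14.8 to 3.90 points that includes 0.

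**Figure D4:**
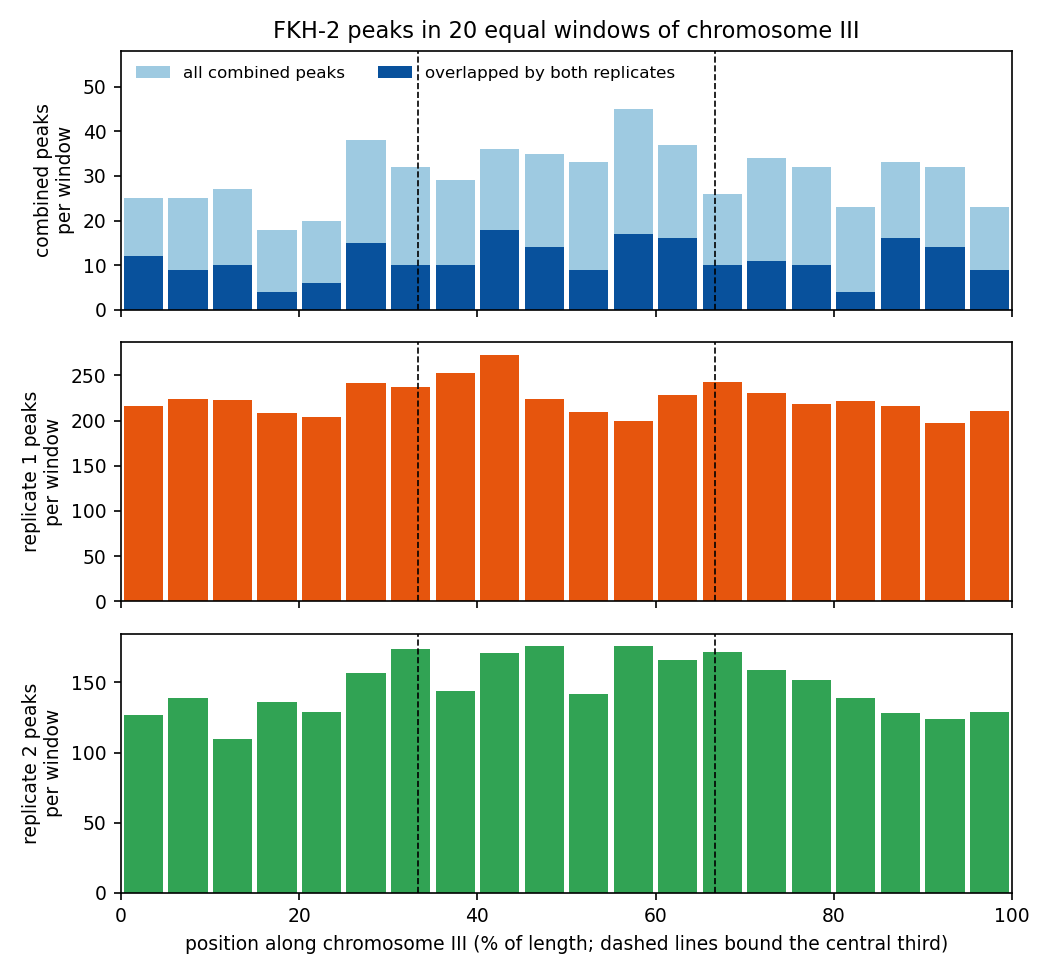
Number of peaks (y axes) in 20 equal windows along chromosome III (x axis, percent of its length, dashed lines at the bounds of the centre): combined peaks on top, with those covered by both replicates in dark blue, then replicate 1 and replicate 2. Combined peaks range from 18 to 45 per window and are highest just right of the middle, where replicate 1 has one of its lower counts, 200.

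At a finer scale the lists did not rise and fall together everywhere. In 20 equal windows of 689 kb, combined peaks on III numbered 18 to 45 with a median of 32. Replicate 1 had 197 to 273 peaks per window and replicate 2 had 110 to 176. The fullest window of the combined list, with 45 peaks, held 200 replicate 1 peaks, the second lowest count of that list, and 176 replicate 2 peaks, its joint highest count. The window with most replicate 1 peaks, 273, held 36 combined peaks. Across the 20 windows, combined counts had a Spearman correlation of 0.29 with those of replicate 1 (Pearson 0.19) and of 0.59 with those of replicate 2 (Pearson 0.61), and the replicates one of 0.50 with each other (Pearson 0.46). These are descriptions over windows of 1 chromosome, all from the same libraries.

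Compared with the other chromosomes, III had 43.8 combined peaks per Mb. That was 1.06 times the density of IV (0.947 to 1.18), an interval that includes 1. It was 1.21 times that of II (1.08 to 1.36), 1.20 times that of V (1.08 to 1.34) and 1.28 times that of X (1.14 to 1.43). Chromosome I, with 132 combined peaks, was far below the rest. The replicate lists gave a smaller spread, with 325 replicate 1 peaks per Mb on III against 266 to 312 on the other chromosomes, and 214 replicate 2 peaks per Mb against 192 to 224.

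Spacing was taken as the gap from the end of a combined peak to the start of the next. On III, the 602 gaps between neighbouring combined peaks had a median of 14670.5 bp, with quartiles of 3957 and 30649 bp. The median gap on IV was 13886 bp, and on II, V and X it was 15549, 16731.5 and 19303 bp. Within III the median gap was 12039 bp in the centre, 15213 bp in the left arm and 14843 bp in the right arm. The mean gap on III was 22691 bp, above its median, and 165 of the 602 gaps (27.4%) were at most 5 kb long. No gap on III was shorter than 232 bp, and none on any chromosome was shorter than 200 bp, so a distance below this did not occur between separate calls of this list.

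Stretches without a combined peak were counted as gaps and as empty windows, with no interval computed for differences between chromosomes. Gaps over 50 kb made up 12.6% of all gaps on III (76 of 602), against 13.8% on IV, 16.3% on V, 17.2% on II, 17.4% on X and 61.8% on I. In 50 kb windows, 36 of 276 on III (13.04%) held no combined peak, against 20.0 to 22.8% on II, IV, V and X. In 100 kb windows the order differed, with 3.62% empty on III, 3.27% on II, 4.0% on IV, 5.06% on X and 5.71% on V. On I, 67.9% of the 50 kb and 41.7% of the 100 kb windows were empty. The 3 longest gaps on III were of similar length, with 1 in each arm and 1 in the centre. In the centre, III:9102891-9267659 was free of combined peaks over 164769 bp and held 50 replicate 1 and 36 replicate 2 peaks, the best of them ranked 1514 and 3507. In the left arm, III:2862296-3026803 (164508 bp) held 42 and 34 replicate peaks with best ranks of 1583 and 853. In the right arm, III:12058635-12220833 (162199 bp) held 48 and 26, with best ranks of 1079 and 1163. The best-ranked replicate peak in any of the 3 gaps was thus the one at rank 853 of replicate 2. The median 50 kb window of III held 16 replicate 1 and 11 replicate 2 peaks, so counts of this order are usual for stretches of such length.

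**Figure D5:**
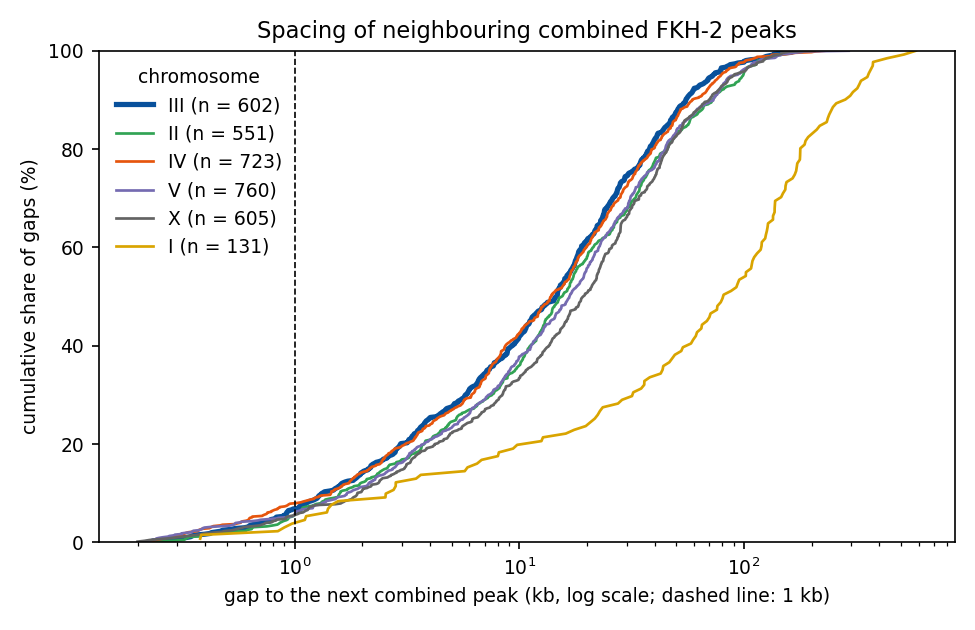
Cumulative share of gaps (y axis, percent) between neighbouring combined peaks up to a given length (x axis, kb, log scale), 1 line per chromosome, with 1 kb marked by a dashed line. The curves of III and IV run closely together and left of those of II, V and X, with a median gap of 14670.5 bp on III, while I lies far to the right.

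Clusters were defined as runs of 2 or more combined peaks with gaps of at most 1000 bp. On III, 76 of the 603 peaks (12.6%, 10.1 to 15.5%) fell into 35 clusters, beside 11.4% of all combined peaks. The share was 1.47 points higher on III than on the other chromosomes (-1.24 to 4.56 points), a difference not detected by its interval. By single chromosome it was 14.9% on IV, above III, 10.9% on II, 9.90% on X, 9.46% on V and 6.82% on I. Pairs made up 30 of the 35 clusters, 4 held 3 peaks and 1 held 4. The median span of a cluster was 1055 bp and the longest was 2800 bp. Elsewhere clusters reached 9 peaks and 8516 bp, both on V. Counting each cluster once, III had 562 separate places with a combined peak.

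A difference between clustered and single peaks on III was not detected. Both replicates overlapped 34 of 76 clustered peaks (44.7%, 33.3 to 56.6%) and 190 of 527 single peaks (36.05%, 31.9 to 40.3%), a difference of 8.68 points (-2.77 to 20.5 points). The median width was 154 bp in clusters and 138 bp outside them, and the median q was 0.00416 and 0.00419.

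The largest cluster on III was III:9051315-9054114, in the centre, with 4 combined peaks 58 to 279 bp wide. Its lowest q was 0.00110, at the rightmost peak III:9053931-9054114, which held a peak ranked 142 in replicate 1 and none of replicate 2. The leftmost peak III:9051315-9051593 (q = 0.00563) was overlapped by the replicate 2 peak ranked 476 and by none of replicate 1. The strongest calls of the replicates in this cluster thus lay at opposite ends of it.

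The cluster III:347741-350261 in the left arm had 3 peaks, all covered by both replicates. Their widths grew from left to right, with 153, 407 and 463 bp, and their q values fell, with 0.00370, 4.91e-05 and 4.78e-10. The best replicate 1 rank, 271, lay at the rightmost of them, and the best replicate 2 rank, 1851, at the middle one. In the centre, III:8171686-8173748 also had 3 peaks, of 2, 148 and 112 bp. Replicate 1 overlapped all 3 and replicate 2 only the middle one, with rank 740. A further 2 clusters of 3 peaks had shorter spans, III:8227593-8229157 with 1565 bp and III:3800365-3801878 with 1514 bp. The second of these holds the low-q peak III:3801260-3801878 described above.

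The widest combined peak on III was the last on the chromosome. III:13779436-13781283 was 1848 bp wide with q = 3.71e-08, and its end is the last position of III in any of the 3 lists. In replicate 1, 5 peaks chained across it, overlapping one another, with ranks of 4150, 5831, 24737, 576 and 284 from left to right. Replicate 2 had 2 peaks there, with ranks of 82 and 4545, of which the stronger lay to the left. The best-ranked peaks of the replicates lay 838 bp apart, at opposite sides of the region, the largest such distance among the 224 III peaks covered by both. The other widest peaks, III:8801608-8802511 and III:10224459-10225356, have been described above. Peaks wider than 400 bp numbered 30 on III (4.98%), beside 5.68% of all combined peaks. The share was 3.18% on IV, 3.62% on II, 5.12% on V, 8.58% on X and 21.2% on I.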

How the data were processed

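The 3 peak lists were read, all in WormBase WS220 coordinates per the file headers. The lists of ChIP replicates 1 and 2 name their source as spp via IDR, and the authors deposited a score for each peak, on a scale that no source states. The combined list names PeakSeq as its source, and the authors deposited a q-value per peak. Whether it was called on pooled reads, the aligner, the control and the tool versions are not given in the sources used here. In the combined list, 3 peaks, 2 of them on III, carry a comment on coordinate conversion, per the file headers. Depth is unknown, so precision is given by counts of peaks. Samples were grouped by their titles.

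Overlap meant at least 1 bp. Midpoints placed peaks in the left arm, centre or right arm, which are 3 equal parts of a chromosome, and the length of a chromosome was the largest peak end in any list (13.8 Mb for III). Shares have exact Clopper-Pearson 95% intervals, differences of shares Newcombe intervals, and densities and their ratios exact Poisson or binomial intervals. No significance test was run, since peaks are not replicates. The regions named are the 10 III peaks with the lowest q, the lowest-q peak of each of these parts, the 3 widest peaks, the 3 clusters with most peaks (ties broken by the longer span) and the 3 longest gaps. Any other region named was picked after its values were seen. The members and lists were chosen with earlier results of these data known. Alternatives changed the width, q, overlap, list length, cluster distance and the bounds of the centre. The calculations were checked on constructed lists with known overlaps, clusters and positions. Python 3.11.15 with numpy 2.4.6, pandas 2.3.3, scipy 1.17.1, statsmodels 0.14.6 and matplotlib 3.10.9 was used.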

Additional observations from a re-analysis of the deposited data

How the results depend on the processing

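Of 38 recomputed values for 7 results on III, 17 stayed within the 95% interval of the value as reported and 21 moved outside it. This count does not measure robustness, since several outcomes were set by the alternatives themselves. Merging within 200 bp could join no peaks on III, where the shortest gap was 232 bp. Leaving out the last peak removed 1 of 603, and keeping fewer peaks always lowers the density. Keeping only combined peaks wider than 20 bp gave a density of 37.5 per Mb, a median width of 157 bp and a median gap of 16567.5 bp. Keeping only those with q of at most 0.001 gave a density of 8.998 per Mb, a central share of 34.7%, coverage by both replicates of 73.4%, no replicate peak at 3.23%, a median width of 295 bp, a median gap of 62732 bp and a clustered share of 6.45%. That central share has an interval of its own from 26.4 to 43.7%, which includes the 39.3% of all III peaks. Coverage by both replicates was 31.2% when at least 50% of the combined peak had to be covered. Using only the top 50% of ranks in either replicate it was 23.1%, and 24.0% of peaks had no replicate peak. With replicate 1 reduced to as many peaks as replicate 2 these values were 33.0% and 14.4%. Leaving out 1 replicate gave 53.4 to 72.6% of peaks covered by the one left and 27.4 to 46.6% without it. The clustered share was 4.81% with gaps of at most 500 bp and 25.9% with gaps of at most 2000 bp. The cause of these shifts beyond the smaller lists and changed distances was not tested. Merging peaks within 200 bp joined none on III. Leaving out the last peak of III, an alternative chosen after seeing the data, moved none of the 7 results. No paired analysis was possible because the numbers pair ChIP with input, and the input entered no value. Depth is unknown, so what it limits cannot be stated.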

Other observations

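The fullest 50 kb window of III in the combined list, III:7700001-7750000, contained 10 of them, where the median window of III had 2. Both replicates overlapped 8 of the 10, and each of the 10 was overlapped by at least 1 replicate. Their widths ran from 18 to 471 bp, and 1 of them had a q of at most 1e-06. The same window held 26 replicate 1 peaks, against a median of 16, and 18 replicate 2 peaks, against a median of 11. The window was picked after its values were seen.

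The combined peak III:7446781-7447310, 530 bp wide with q = 3.18e-08, lay in a stretch empty in both replicate lists. Replicate 1 had no peak over III:7396648-7453745 (57098 bp) and replicate 2 had none over III:7404012-7457169 (53158 bp), the longest such stretch of III in each list. This peak too was picked after its values were seen.

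Ranks of at most 300 in both replicates were found at 15 of the 603 combined peaks on III (2.49%), beside 78 of all 3378 (2.31%). The share was 2.36% on II, 1.24% on IV, 1.31% on V, 3.96% on X and 5.30% on I. The last peak of III is among the 15, although its best-ranked replicate peaks do not overlap each other.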
